A study of Mus musculus with 4 samples.

Results

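The 50 genes described here, which mark macrophages and dendritic cells or act in them, were followed in RNA sequencing of whole mouse uterus on gestational day 4. The list was set by gene symbol and was chosen with earlier results of these data known. Of the 50 genes, 48 were found among the 19991 genes of the deposited TPM table, out of 57186 genes counted in all. The remaining 2 had almost no reads: Timd4, a phagocytic receptor of some resident macrophages, was counted 9 and 5 times in control libraries and 0 times in each knockout, and Marco, a scavenger receptor, had at most 1 count in any library. All 48 found genes passed the filter on low counts. There were 4 libraries, 2 from mice labelled wild type, used as controls, and 2 from knockout mice. Knockout mice had the genotype Prss29Cre/Cre;Pgrf/f (Pgr gecKO), in which Cre, carried on each Prss29 allele, a locus active in uterine glands, is meant to delete floxed Pgr, the progesterone receptor gene, in the gland epithelium. Stroma, muscle, vessels and leukocytes keep Pgr in that design, and the labels used here give neither strain nor age, and do not say whether each library came from a separate animal. The groups differ in Cre and in the Prss29 locus as well as in the floxed Pgr allele, and these cannot be told apart. The comparison asks how macrophage and dendritic cell transcripts of the whole uterus differ when the glands are meant to lack the receptor.

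Macrophages are phagocytes that arise from embryonic precursors or from blood monocytes and depend on signals through the CSF1 receptor. Dendritic cells capture antigen and present it to T cells, and their growth depends on the FLT3 receptor. Both lineages are built by the transcription factor PU.1, encoded by Spi1, and both are found in the uterine stroma and muscle, where CSF1 made by the uterus under ovarian hormones is a growth signal for macrophages. In early pregnancy these cells take part in tissue remodelling, clearance of dead cells and tolerance of the conceptus.

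Total counts ran from 29932153 to 35149834 per library. Pgr itself stood at 140.5 and 138.6 CPM in controls 1 and 2 and at 130.1 and 146.2 CPM in knockouts 1 and 2, so that a loss of Pgr was not seen in whole uterus. Prss29 was counted 1524 and 190 times in control libraries and 0 times in each knockout. CPM are counts divided by library size, scaled between libraries by the TMM method, and TPM are the authors' values, which also divide by gene length and are used here to compare one gene with another. The libraries of one group were not alike. Over 13319 genes, log2 CPM correlated at 0.946 between the controls and at 0.940 between the knockouts. Each library was closest to a library of the other group: control 2 to knockout 1 (0.969) and control 1 to knockout 2 (0.949). Mitochondrial genes took 4.52% of the counts in control 2 and 2.66% to 2.93% in the other 3 libraries. Summed smooth muscle markers were at 7955 and 2494 TPM in controls 1 and 2 and 6522 and 9822 TPM in knockouts 1 and 2. In a bulk sample, fewer cells of a type and less RNA per cell cannot be told apart.

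Most of the genes were lower in the knockout, and none passed the test across all genes. Because the list was chosen with earlier results of these data known, its shares beside those of all genes are descriptions only. Of the 48 genes, 43 had a log2 fold change (knockout over control, also written log2 difference) below 0, or 89.6%, where 48.9% of the 20950 genes tested did. The median over the 48 genes was −0.50, with a range of −2.11 to 1.10, and the median over all tested genes was 0.0063. In edgeR's quasi-likelihood test with Benjamini-Hochberg adjustment, 0 of the 48 passed at 0.05, and the smallest adjusted p was 0.455, while 1 gene of all those tested passed, or 0.00477%. Both knockout libraries lay below both controls in 23 of the 48 genes, or 47.9%, against 13.1% of all tested genes, and both lay above in 0, against 12.2%. On the TPM scale, which is scaled differently between libraries, the count was 25: Laptm5 no longer separated, and Ptprc, Lyz2 and Fcgr4 did. At an unadjusted p under 0.05, 9 of the 48 were lower, or 18.8%, against 1.79% of all tested genes, and 0 were higher, against 1.22%. The 9 were Itgax, Fcer1g, Itgam, Gpnmb, Msr1, Cd68, Ms4a6c, Fcgr2b and Adgre1. DESeq2, run as an alternative, called 4 of them lower after adjustment, where it called 0.200% of the 22981 genes it gave an adjusted p lower. Without control replicate 2 the median over the 48 genes was −0.25, and 33 genes rather than 43 were below 0.

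**Figure D1:**
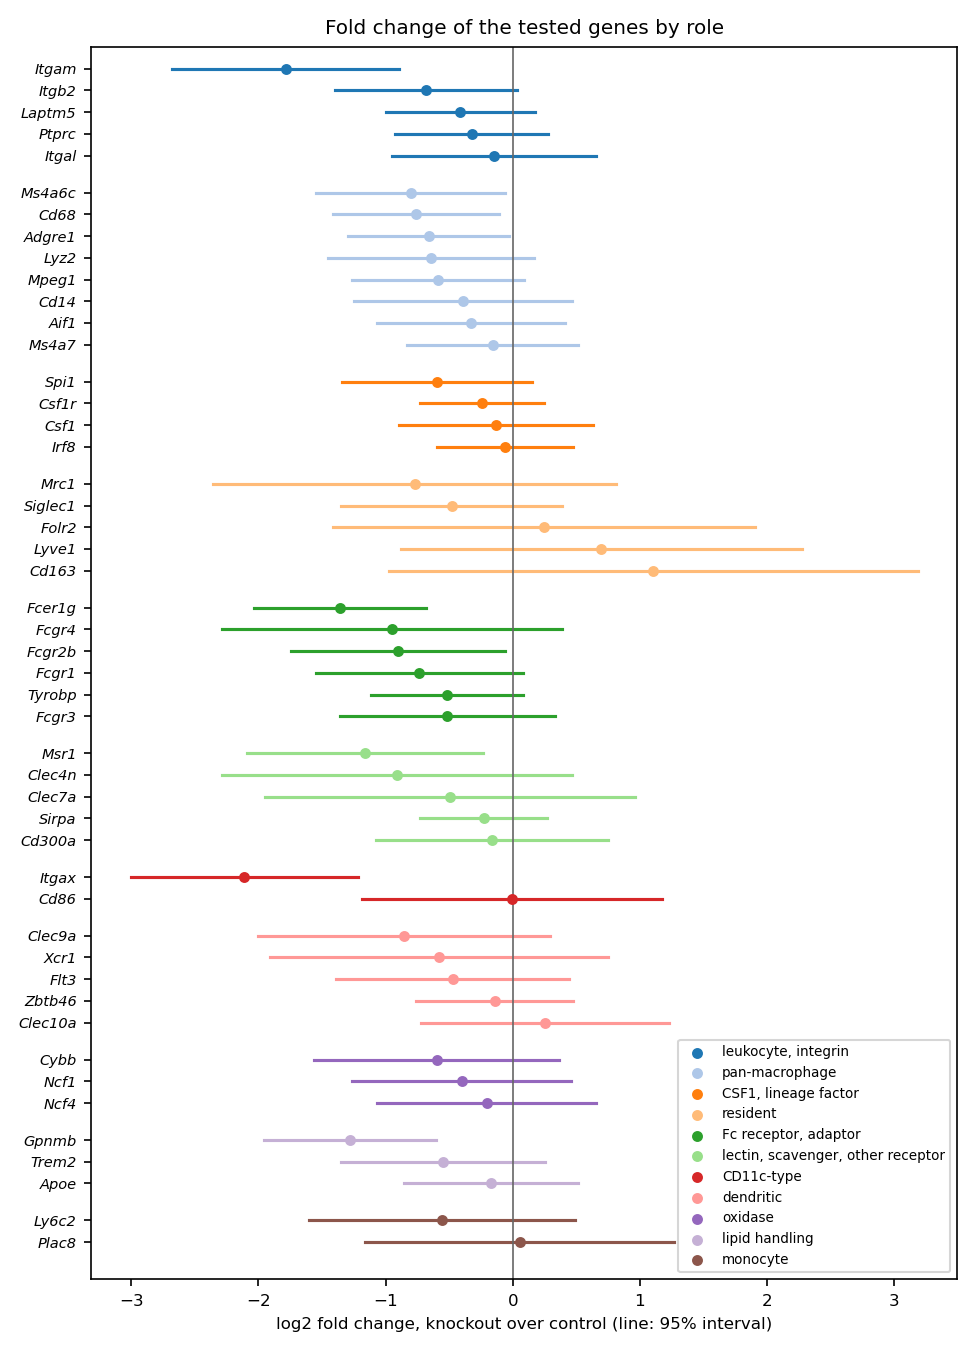
Log2 fold change, knockout over control, of the 48 tested genes (points) with its 95% interval (lines), by role. Points of 43 genes lie left of 0; the intervals of 9 genes exclude 0, led by Itgax at −2.11 and Itgam at −1.79, and the resident macrophage genes have wide intervals that span 0.

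The largest difference was in Itgax, which encodes CD11c, an integrin chain carried by dendritic cells and by some tissue macrophages. Itgax (ENSMUSG00000030789) stood at 17.2 and 32.1 CPM in controls 1 and 2 and at 6.20 and 5.20 CPM in knockouts 1 and 2. Both knockouts lay far below the lower control, although the controls themselves differed. The means were 24.7 ± 10.5 and 5.70 ± 0.70 CPM (SD, n = 2 each), a level 4.32 times as high in controls. Its log2 fold change was −2.11 (SE 0.38, 95% interval −3.01 to −1.22), with an adjusted p of 0.455 in edgeR. In DESeq2 the adjusted p was 9.38e-05, and over all alternatives it ran from 9.38e-05 to 0.899. Leaving out control replicate 1 gave −2.48 with adjusted p = 0.0393 in edgeR, and leaving out control replicate 2 gave −1.60 with 0.463. The other gene placed beside it, Cd86, a co-stimulatory ligand for T cells, did not share this difference. Cd86 was at 2.36 and 2.94 CPM in controls against 1.72 and 3.56 CPM in knockouts, with a 95% interval of −1.19 to 1.18.

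Itgam, which encodes CD11b, the integrin chain of macrophages, monocytes, neutrophils and many NK cells, came close behind. Itgam (ENSMUSG00000030786) was at 10.6 and 7.52 CPM in controls 1 and 2 and at 2.36 and 2.89 CPM in knockouts 1 and 2. The groups did not overlap, and controls were 3.45 times as high. Its log2 fold change was −1.79 (SE 0.38), with adjusted p = 0.734 in edgeR and 0.00972 in DESeq2, and a range over alternatives of 0.00972 to 1.0. The shared partner chain of these integrins, Itgb2 (CD18), was also lower in both knockouts, at 18.7 and 28.6 CPM in controls against 15.9 and 13.6 CPM in knockouts, but by less, with a log2 fold change of −0.68 (95% interval −1.40 to 0.032). Itgal, the CD11a chain found on most lymphocytes as well as myeloid cells, overlapped between groups. It was at 14.2 and 19.0 CPM in controls against 18.5 and 11.4 CPM in knockouts, with a log2 fold change of −0.15 that turned to 0.081 without control replicate 2 and 0.16 without knockout replicate 2.

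General leukocyte genes differed less. Ptprc, the CD45 phosphatase of all white blood cells, was at 45.6 and 65.8 CPM in controls against 41.2 and 47.9 CPM in knockouts, which overlapped (log2 fold change −0.32, 95% interval −0.92 to 0.28, and −0.034 without control replicate 2). Laptm5, a lysosomal protein of blood cells, was at 59.6 and 76.8 CPM in controls against 58.6 and 43.9 CPM in knockouts, a log2 fold change of −0.41. Knockout 1 lay just under control 1 on this scale and just above it in TPM, at 51.1 against 50.3. Within each library, the ratio of Itgax to Ptprc in TPM was 1.44 and 1.86 in controls and 0.573 and 0.414 in knockouts. The ratio of Itgam to Ptprc was 0.845 and 0.417 in controls and 0.209 and 0.220 in knockouts. For Itgal it was 0.866 and 0.806 in controls and 1.25 and 0.666 in knockouts. Relative to CD45 the CD11c and CD11b chains were thus lower in both knockouts, while the CD11a chain lay on either side of the controls.

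**Figure D2:**
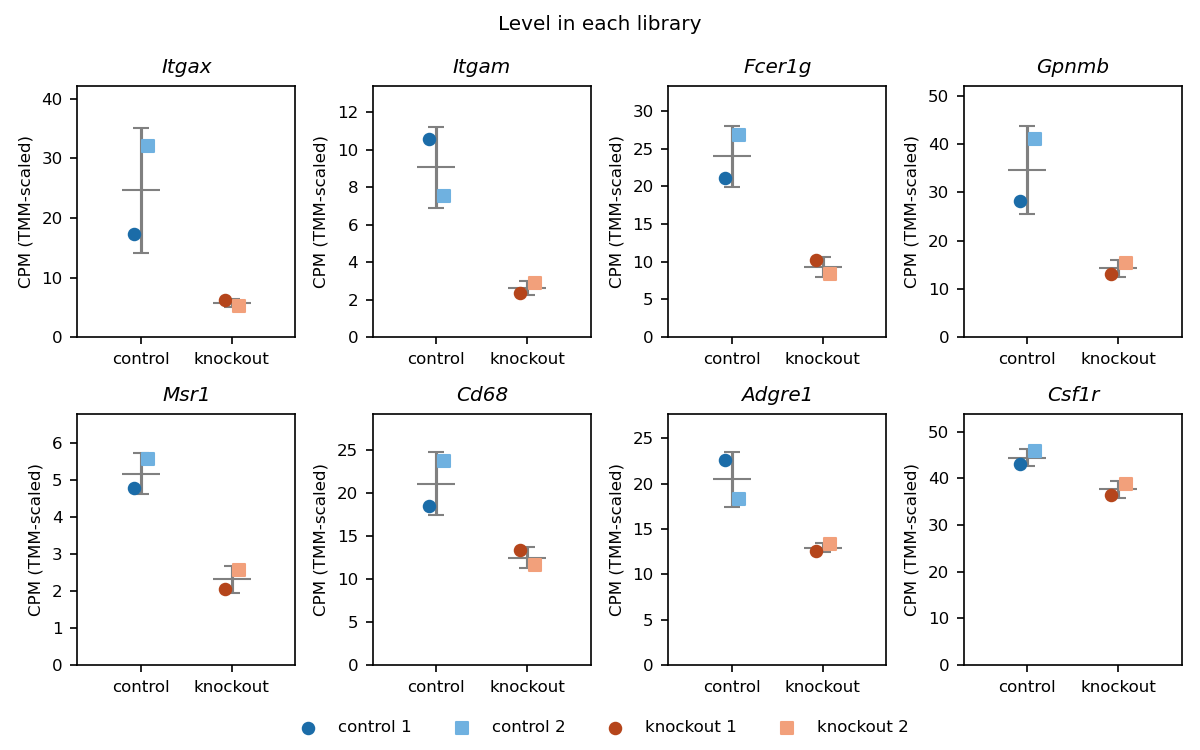
CPM of 8 genes in each library (points; circles replicate 1, squares replicate 2), with the mean and SD of each group (grey bars, n = 2). In all 8 panels both knockout libraries lie below both controls, by 4.32 times in mean for Itgax and by 1.18 times for Csf1r. The 8 were picked from the 23 of the 48 tested genes with that separation (47.9%, against 13.1% of all tested genes). In the other 25 the groups overlapped.

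Fc receptors and their signalling adaptors had lower values in the knockout. Fc receptors bind antibody on particles, and most of the activating ones signal through the short adaptor chain encoded by Fcer1g. All 6 genes of this group had log2 fold changes below 0 (median −0.82), where 48.9% of all tested genes did. For 5 of the 6 both knockouts lay below both controls, against 13.1% of all tested genes. Fcer1g (ENSMUSG00000058715) was at 21.1 and 26.8 CPM in controls 1 and 2 and at 10.3 and 8.38 CPM in knockouts 1 and 2. Controls were 2.57 times as high (log2 fold change −1.36, SE 0.28, adjusted p = 0.727 in edgeR). DESeq2 gave an adjusted p of 0.0187, and the range over alternatives was 0.0187 to 1.0. Mast cells carry the same adaptor in their IgE receptor. All 4 tested mast cell markers had log2 fold changes below 0, from −1.44 to −1.0, where 48.9% of all tested genes did. Their intervals all spanned 0, and their summed levels are given further on. The mast cell markers were higher in control 1 and in knockout 2, whereas Fcer1g was higher in control 2 and in knockout 1. The part of mast cells in the Fcer1g values was not tested. Tyrobp, the DAP12 adaptor of TREM2 and of NK cell receptors and the most abundant gene of this group per length at a mean of 79.5 TPM, differed less. It was at 20.1 and 19.6 CPM in controls against 13.3 and 14.4 CPM in knockouts (log2 difference −0.52, SE 0.25). The ratio of Fcer1g to Tyrobp in TPM was 0.804 and 1.04 in controls and 0.590 and 0.444 in knockouts, a difference that was not tested.

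Among the receptors themselves, Fcgr2b, the inhibitory receptor that damps antibody signals, was at 24.8 and 18.4 CPM in controls against 8.40 and 14.7 CPM in knockouts (log2 difference −0.90, SE 0.35, unadjusted p = 0.0395, adjusted p = 1.0 in edgeR). Fcgr1, the high-affinity activating receptor and a macrophage marker, was at 7.51 and 7.27 CPM in controls against 3.93 and 4.95 CPM in knockouts (log2 difference −0.73). Fcgr3, a low-affinity activating receptor, was at 14.8 and 14.0 CPM in controls against 7.19 and 13.0 CPM in knockouts, so that knockout 2 was close to the controls. Fcgr2b and Fcgr3 resemble each other in the part that binds antibody, and reads may have been divided between them. Fcgr4, an activating receptor of monocytes and macrophages, was set apart by 1 library: it was at 4.89 CPM in control 1 and between 1.54 and 1.96 CPM in the other 3. Its log2 fold change, −0.95, came to −0.089 once control replicate 1 was left out. Inhibitory and activating receptors were thus both at lower values, and the TPM ratio of Fcgr2b to Fcgr3 was 0.502 and 0.392 in controls and 0.350 and 0.338 in knockouts.

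Promoters of these genes can be read for the PU.1 core, since PU.1 is the lineage factor that many of them are known to need. The RefSeq promoter windows used here (250 bases before to 50 after a start, build GRCm38.p6) matched 35 of the 50 genes. Windows on the chromosome that carries Csf1r and Cd14 were left out before matching. A gene without a match here may therefore have a window in RefSeq, and the shares below hold for the windows used. The core GAGGAAG was sought on both strands, and it appears as CTTCCTC where it lies on the opposite strand. It was present in 10 of the 35 genes, or 28.6%, and in 15.4% of all 27025 genes with windows used here. In the 90 bases before the start it was present in 9 of the 35, or 25.7%, against 5.0% of all genes, a stretch chosen after the positions were seen. The 9 were Itgam, Fcgr1, Fcgr3, Fcgr4, Trem2, Cd300a, Laptm5, Mrc1 and Ly6c2. A composite of PU.1 and IRF sites, GGAA followed after any 2 bases by GAAA, was present in 6 of the 35 windows' genes (Cd68, Clec7a, Cybb, Fcgr2b, Folr2 and Timd4), or 17.1%, against 3.16% of all genes. The M-box core CATGTG, bound by MITF and its relatives, was in 17.1% of the 35 and 15.9% of all genes. These matches are descriptions of letters and not of binding. The 90 bases before the start are printed 5′ to 3′ on the gene's strand, with the core in capitals, first for 8 genes that hold it, to show how near the start it lies, and then for the 3 genes among the leading 4 that do not.
Itgam, chr7:128062550-128062639, plus strand: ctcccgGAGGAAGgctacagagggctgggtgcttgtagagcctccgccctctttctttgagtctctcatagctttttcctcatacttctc
Fcgr1, chr3:96293970-96294059, minus strand: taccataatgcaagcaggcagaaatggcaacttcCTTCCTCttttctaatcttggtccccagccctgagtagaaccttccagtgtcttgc
Fcgr3, chr1:171059404-171059493, minus strand: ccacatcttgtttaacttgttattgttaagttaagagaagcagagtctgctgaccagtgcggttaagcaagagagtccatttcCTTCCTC
Fcgr4, chr1:171018836-171018925, plus strand: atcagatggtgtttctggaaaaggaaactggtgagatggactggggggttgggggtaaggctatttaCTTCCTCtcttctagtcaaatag
Trem2, chr17:48346311-48346400, plus strand: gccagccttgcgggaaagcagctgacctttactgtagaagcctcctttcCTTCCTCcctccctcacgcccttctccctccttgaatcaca
Cd300a, chr11:114889951-114890040, plus strand: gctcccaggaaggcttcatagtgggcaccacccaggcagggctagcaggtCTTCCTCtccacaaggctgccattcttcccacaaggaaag
Laptm5, chr4:130913226-130913315, plus strand: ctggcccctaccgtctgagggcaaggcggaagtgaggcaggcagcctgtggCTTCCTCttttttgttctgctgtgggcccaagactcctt
Mrc1, chr2:14229324-14229413, plus strand: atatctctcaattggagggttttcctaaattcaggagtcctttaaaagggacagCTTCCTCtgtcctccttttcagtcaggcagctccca
Itgax, chr7:128129460-128129549, plus strand: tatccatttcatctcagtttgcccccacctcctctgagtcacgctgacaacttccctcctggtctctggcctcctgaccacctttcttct
Fcer1g, chr1:171234350-171234439, minus strand: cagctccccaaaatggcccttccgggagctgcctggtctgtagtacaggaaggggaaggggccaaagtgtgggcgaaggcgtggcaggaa
Gpnmb, chr6:49036428-49036517, plus strand: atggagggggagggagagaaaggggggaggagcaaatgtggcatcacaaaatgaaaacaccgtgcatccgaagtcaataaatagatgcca
Itgam and Itgax are neighbours on chromosome 7, and Fcgr3, Fcgr4 and Fcer1g lie near one another on chromosome 1, so that these members share a region as well as a cell lineage. Of the 4 genes with the smallest p, Itgam alone held the core within these 90 bases.

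Of the 8 genes of macrophages in general, 0 passed the adjusted test in edgeR. All 8 had log2 fold changes below 0, where 48.9% of all tested genes did. In 5 of the 8 both knockouts lay below both controls, against 13.1% of all tested genes. The median was −0.61, and −0.27 without control replicate 2. Adgre1, which encodes F4/80, the classical mouse macrophage marker, was at 22.7 and 18.4 CPM in controls against 12.6 and 13.3 CPM in knockouts. That is a log2 fold change of −0.66 (SE 0.27, 95% interval −1.29 to −0.030, adjusted p = 1.0 in edgeR). Cd68, a lysosomal glycoprotein of phagocytes, was at 18.5 and 23.7 CPM in controls against 13.3 and 11.6 CPM in knockouts (log2 difference −0.76, SE 0.27). Ms4a6c, a membrane protein with close paralogs whose reads may be shared, was at 14.1 and 12.1 CPM in controls against 6.47 and 8.52 CPM in knockouts (−0.80, SE 0.31). In these 3 genes both controls were above both knockouts and their unadjusted p ran from 0.0288 to 0.0425.

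The most abundant of these genes varied more between libraries of one group. Lyz2, the lysozyme gene of myeloid cells, with a similar neighbour Lyz1 that may share reads, was at 201.0 and 358.1 CPM in controls against 152.2 and 206.3 CPM in knockouts. Its groups overlapped, since knockout 2 lay just above control 1, and its log2 fold change of −0.64 became −0.17 without control replicate 2. Mpeg1, a pore-forming protein of phagocytes, was at 76.4 and 123.0 CPM in controls against 73.7 and 59.0 CPM in knockouts. Cd14, the co-receptor for bacterial lipopolysaccharide, which other uterine cells can also transcribe, was at 54.2 and 97.3 CPM in controls against 72.1 and 43.6 CPM in knockouts. Its log2 fold change, −0.39, came to 0.094 once control replicate 2 was left out. Aif1 (IBA1), an actin-binding protein, was at 8.78 and 8.69 CPM in controls against 7.50 and 6.42 CPM in knockouts, and Ms4a7, a marker of monocyte-derived macrophages, at 11.8 and 15 CPM against 12.0 and 12.1 CPM. Control 2 was the highest library for Lyz2, Mpeg1, Cd14, Cd68 and Ms4a7, and each of these 5 differed less once it was left out.

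The growth factor, its receptor and the lineage transcription factors gave 4 genes with a median log2 fold change of −0.19, from −0.60 for Spi1 to −0.063 for Irf8, and none passed the test. Csf1, the growth factor made by epithelium, stroma and endothelium rather than by macrophages themselves, was at 33.6 and 22.0 CPM in controls against 20.2 and 30.5 CPM in knockouts, fully overlapping (log2 fold change −0.13, 95% interval −0.90 to 0.63). Csf1r, its receptor and the defining gene of the macrophage lineage, differed by less than 0.1 on the log2 scale between the libraries of each group. It was at 43.1 and 45.8 CPM in controls against 36.4 and 38.9 CPM in knockouts, a log2 fold change of −0.24 (SE 0.21, 95% interval −0.73 to 0.25). Both knockouts lay below both controls, by a narrow margin. Spi1 was at 8.78 and 10.7 CPM in controls against 6.62 and 6.24 CPM in knockouts (−0.60, SE 0.31), with no overlap. Irf8, the factor that directs monocyte and dendritic cell development, was at 38.5 and 48.3 CPM in controls against 39.3 and 43.7 CPM in knockouts, with a log2 fold change of −0.063 and an interval of −0.60 to 0.47. Within each library the TPM ratio of Csf1r to Adgre1 was 1.07 and 1.40 in controls and 1.62 and 1.63 in knockouts.

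Lectin, scavenger and inhibitory receptors gave 5 tested genes, all below 0 in log2 fold change (median −0.49), where 48.9% of all tested genes were. Msr1, scavenger receptor A, which takes up modified lipoproteins, had the smallest p. Msr1 (ENSMUSG00000025044) was at 4.78 and 5.56 CPM in controls against 2.06 and 2.57 CPM in knockouts, a level 2.24 times as high in controls (log2 fold change −1.16, SE 0.39, unadjusted p = 0.0213, adjusted p = 1.0 in edgeR). Sirpa, the "do not eat me" receptor of myeloid cells, also found on other cell types, was the most abundant of them per length. It was at 72.9 and 66.3 CPM in controls against 64.3 and 54.5 CPM in knockouts (−0.23, SE 0.21). Clec4n, the dectin-2 receptor for fungal mannans, was at 2.76 and 1.60 CPM in controls against 0.756 and 1.57 CPM in knockouts. Clec7a, the dectin-1 receptor for fungal glucans, stood out for its controls: it was at 5.61 CPM in control 1 and 22.5 CPM in control 2, with knockouts at 8.01 and 11.9 CPM between them. Its log2 fold change of −0.49 turned to 0.83 without control replicate 2. Cd300a, an inhibitory receptor for phospholipids of dying cells, was at 5.67 and 8.12 CPM in controls against 4.93 and 7.38 CPM in knockouts, with no separation.

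Genes of lipid-laden phagocytes divided. Gpnmb, a glycoprotein of lysosome-rich macrophages, was among the 4 leading genes. Gpnmb (ENSMUSG00000029816) was at 28.2 and 41.0 CPM in controls 1 and 2 and at 13.1 and 15.4 CPM in knockouts 1 and 2. Controls were 2.43 times as high (log2 fold change −1.28, SE 0.28, adjusted p = 0.850 in edgeR and 0.0472 in DESeq2, with 0.0472 to 1.0 over all alternatives). Trem2, a lipid-sensing receptor that signals through Tyrobp, was at 13.2 and 19.6 CPM in controls against 13.3 and 9.16 CPM in knockouts, so that control 1 and knockout 1 were alike. Apoe, the lipid carrier that stromal and other cells also make, was the most abundant gene of the list at a mean of 997 TPM. It was at 725.6 and 702.8 CPM in controls against 710.6 and 558.3 CPM in knockouts, and its log2 fold change was −0.17 (95% interval −0.85 to 0.51). The TPM ratio of Gpnmb to Trem2 was 1.62 and 1.59 in controls and 0.744 and 1.28 in knockouts.

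Among the 5 tested resident macrophage genes, Mrc1, Lyve1, Cd163 and Folr2 differed widely between libraries of one group, and Siglec1 less so. Some genes of other roles, such as Plac8, Clec7a and Cd14, also varied more within groups than between them. Mrc1, the mannose receptor CD206, was at 45.5 and 13.4 CPM in controls 1 and 2 and at 8.80 and 25.8 CPM in knockouts 1 and 2. Control 1 and knockout 2 were the high libraries, and the groups overlapped fully. Lyve1, a hyaluronan receptor of perivascular macrophages and of lymphatic endothelium, was at 22.0 and 18.6 CPM in controls against 10.5 and 55.4 CPM in knockouts. Its log2 fold change was 0.70 (SE 0.66), and without knockout replicate 2 it was −0.94. Cd163, the receptor for haemoglobin and haptoglobin, had 34 and 18 counts in controls and 15 and 78 in knockouts, and its log2 fold change of 1.10 (95% interval −0.97 to 3.18) became −0.71 without knockout replicate 2. Folr2, a folate receptor of resident macrophages, was at 4.89 and 2.28 CPM in controls against 1.72 and 6.81 CPM in knockouts. In each of these 4 genes control 1 exceeded control 2 and knockout 2 exceeded knockout 1, and knockout 1 was the lowest library. Siglec1, the sialic acid receptor CD169, kept the same order within groups in a narrower range. It was at 6.62 and 5.41 CPM in controls against 3.75 and 4.88 CPM in knockouts, with no overlap (log2 fold change −0.48, SE 0.36).

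The same order of libraries was seen in markers of some tissue layers and cell types, but not of all. All 5 lymphatic endothelium markers were higher in control 1 than in control 2 and in knockout 2 than in knockout 1, with summed levels of 396 and 145 TPM in controls and 125 and 655 TPM in knockouts. Ccl21a, a lymphatic chemokine, was at 81.1 and 28.4 CPM in controls against 23.2 and 170.6 CPM in knockouts, and Reln at 16.9 and 7.64 against 3.99 and 42.6 CPM. All 6 smooth muscle markers, the 4 tested mast cell markers and the 3 erythroid markers had that order too. Summed mast cell markers were at 76.4 and 32.8 TPM in controls and 8.49 and 34.1 TPM in knockouts. No marker of these 4 lists was at 0 counts in any library. The 5 stromal markers were all higher in control 1, and 4 of them were higher in knockout 2. All 5 blood endothelium markers were higher in control 1 and in knockout 1. Of the 5 epithelial markers, 3 were higher in control 2 and 4 in knockout 2. Adipoq, an adipocyte hormone, was at 0 counts in control 1 and knockout 1 and at 32 and 145 counts in control 2 and knockout 2. The part that layer content plays in the resident macrophage values was not tested. Over the 48 genes, 17 had this order, control 1 above control 2 and knockout 2 above knockout 1, and 15 had the opposite order in both groups. The shares of all tested genes with these orders were not counted. Over 13319 genes, control 1 and knockout 2 tended to deviate from their group means in the same direction (correlation 0.51). Opposite orders in the groups were therefore not particular to the list. Of the 9 genes with an unadjusted p under 0.05, Itgam, Fcgr2b, Ms4a6c and Adgre1 were among the 17, while Itgax, Fcer1g and Cd68 were among the 15. Gpnmb and Msr1 were higher in library 2 of both groups.

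**Figure D3:**
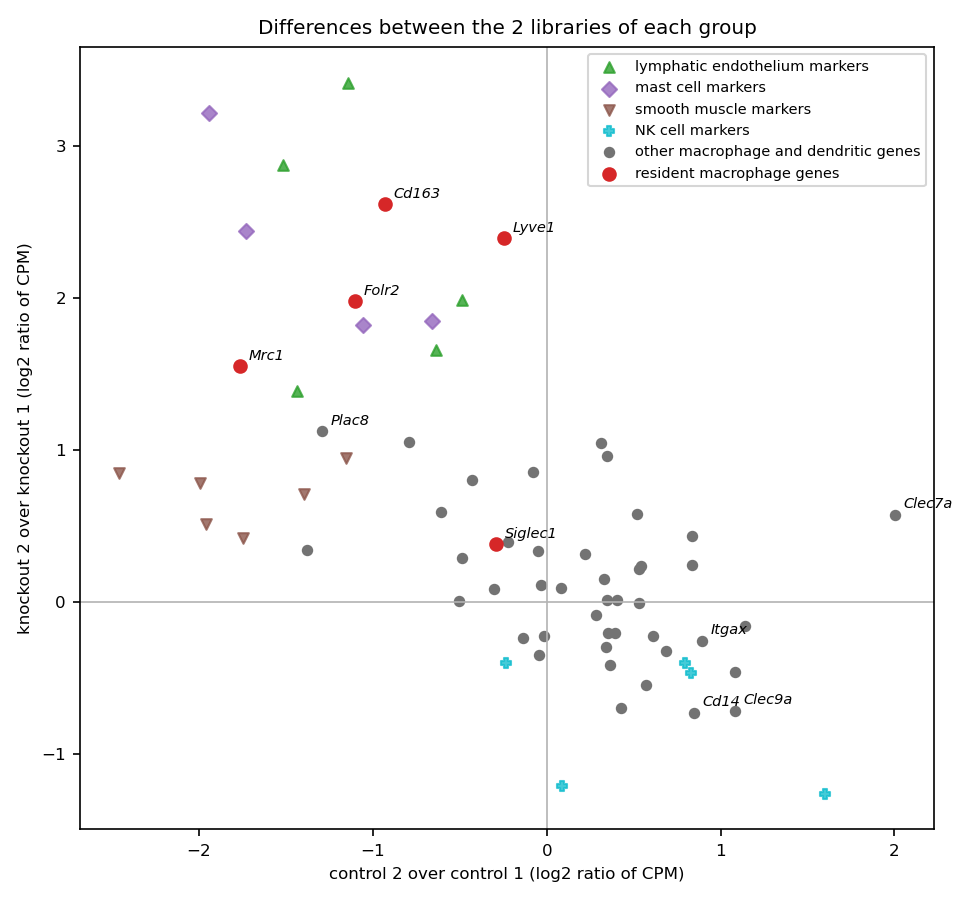
Log2 ratio of CPM between the libraries of each group, control 2 over control 1 (x) and knockout 2 over knockout 1 (y), one point per gene of the list (red for resident, grey for others) and per marker of other cell types, NK cells included. The 5 resident macrophage genes lie at upper left with lymphatic, mast cell and smooth muscle markers, with Mrc1 at −1.76 and 1.55, while Itgax lies at lower right, at 0.90 and −0.25.

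Dendritic cell genes did not separate as a group. Of the 5 genes, 4 had log2 fold changes below 0 (median −0.47), where 48.9% of all tested genes did. In 1 of the 5 both knockouts lay below both controls, against 13.1% of all tested genes. The median was 0.066 without control replicate 2. Flt3, the dendritic growth factor receptor, was at 3.77 and 4.99 CPM in controls against 3.14 and 3.17 CPM in knockouts (log2 difference −0.47, SE 0.39). Clec9a, the receptor for dead cells on conventional dendritic cells of the first type, had the smallest p of this group, and was at 4.86 and 10.3 CPM in controls against 5.20 and 3.17 CPM in knockouts (−0.86, SE 0.48, unadjusted p = 0.121, adjusted p = 1.0 in edgeR). Its value was −0.22 once control replicate 2 was left out. Xcr1, a chemokine receptor of the same cells, was at 1.12 and 2.48 CPM in controls against 1.27 and 1.14 CPM in knockouts. Clec9a and Xcr1 were both highest in control 2. Zbtb46, a transcription factor of conventional dendritic cells that endothelium also transcribes, was the most abundant per length at 8.61 TPM and was at 21.1 and 27.7 CPM in controls against 23.6 and 20.5 CPM in knockouts. Clec10a, a galactose lectin of dendritic cells and macrophages, was at 6.30 and 8.01 CPM in controls against 5.80 and 11.3 CPM in knockouts (log2 difference 0.26, 95% interval −0.72 to 1.23). The 4.32-fold difference in Itgax thus had no counterpart of like size among these 5 genes, whose log2 fold changes ran from −0.86 to 0.26, though no test of that contrast between genes was made.

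The phagocyte oxidase genes, which make superoxide in the phagosome, were highest in control 2, the library with the higher mitochondrial share. The part of that share in these values was not tested. Cybb, the catalytic subunit, was at 13.3 and 28.1 CPM in controls against 15.8 and 11.5 CPM in knockouts. Ncf1, the p47 organiser subunit, was at 9.35 and 16.7 CPM in controls against 9.01 and 10.7 CPM in knockouts, and Ncf4, the p40 subunit, at 4.95 and 7.15 against 5.26 and 5.24 CPM. In all 3 the groups overlapped. Their median log2 fold change was −0.40, and without control replicate 2 it was 0.073.

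The monocyte genes did not give a common picture. Ly6c2, the antigen of classical monocytes, was at 3.19 and 2.25 CPM in controls against 1.84 and 1.85 CPM in knockouts (log2 difference −0.56, SE 0.44). It resembles Ly6c1, a gene of endothelium, and the 2 may share reads. Plac8, a protein of monocytes that other cells also make, stood at a mean of 460 TPM against 2.63 TPM for Ly6c2, a ratio of 103 to 307 within a library. It was at 329.1 and 134.6 CPM in controls against 151.3 and 330.2 CPM in knockouts, high in control 1 and knockout 2 like the resident genes, and its log2 fold change was 0.054 (95% interval −1.16 to 1.27).

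Summed by role, the groups separated in some roles and not in others. The 6 Fc receptor and adaptor genes summed to 236 and 242 TPM in controls and 132 and 128 TPM in knockouts, the widest gap relative to the replicate spread among roles of more than 4 genes. Pan-macrophage genes summed to 764 and 1271 TPM in controls and 660 and 630 TPM in knockouts. The 4 growth and lineage factor genes summed to 72.2 and 73.4 TPM against 60.0 and 60.2 TPM. Itgax and Cd86 together summed to 13.6 and 24.0 TPM against 5.82 and 5.89 TPM. Resident genes summed to 60.7 and 34.6 TPM in controls and 22.2 and 81.9 TPM in knockouts, and dendritic genes to 22.4 and 33.7 TPM against 23.6 and 23.0 TPM. A sum is set mainly by its most abundant gene, such as Lyz2 in the pan-macrophage sum and Apoe in the lipid-handling sum.

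**Figure D4:**
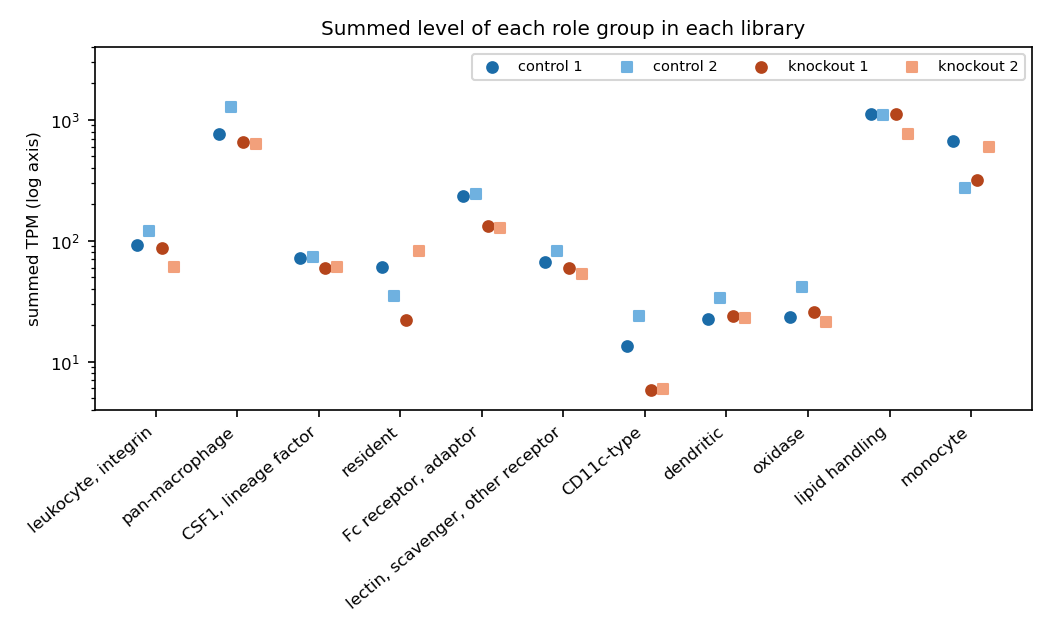
Summed TPM of each role group in each library on a log axis (points; circles replicate 1, squares replicate 2). Fc receptor, CD11c-type, growth and lineage factor, pan-macrophage, leukocyte and integrin, and lectin and scavenger sums are lower in both knockouts. Dendritic, oxidase and lipid-handling sums overlap between groups, and resident macrophage and monocyte sums are highest in control 1 and knockout 2.

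Other genes of the same pathways gave no call over all genes. Among lineage cytokines, receptors and factors, 0 of 13 tested passed after adjustment and 11 were below 0, with a median of −0.30. Csf2rb, the shared receptor chain for GM-CSF, interleukin 3 and interleukin 5, had the smallest p, at 37.6 and 40.4 CPM in controls against 22.5 and 19.4 CPM in knockouts (log2 difference −0.90, SE 0.23). Csf2ra, the specific GM-CSF receptor chain, was at 65.3 and 110.0 CPM in controls against 91.4 and 66.0 CPM in knockouts. Complement C1q and class II genes, made by macrophages and by antigen-presenting cells, were all 8 below 0 (median −0.43), where 48.9% of all tested genes were. In 7 of them both knockouts lay below both controls, against 13.1% of all tested genes. C1qa was at 75.8 and 64.3 CPM in controls against 48.4 and 43.4 CPM in knockouts (log2 difference −0.61, SE 0.21, unadjusted p = 0.025, adjusted p = 1.0 in edgeR). Cd74, the class II invariant chain, was at 210.9 and 229.6 CPM in controls against 161.8 and 159.9 CPM in knockouts.

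The kinases and phosphatases that act below the adaptors were also below 0 in all 9 genes, where 48.9% of all tested genes were. Their median was −0.30, and 0 of 9 were past the adjusted threshold. Of 3 oxidase partners, Cyba, the p22 subunit that non-phagocytes also make, was at 66.9 and 66.2 CPM in controls against 68.4 and 107.3 CPM in knockouts (log2 difference 0.40). The 5 further dendritic genes had a median of −0.32. Ccr7, the receptor that guides dendritic cells to lymph nodes, had 16 and 24 counts in controls and 6 and 6 in knockouts, and Cd83 was at 21.4 and 19.3 CPM in controls against 16.9 and 23.6 CPM in knockouts.

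Markers of other leukocytes were read beside these values, because several genes of the list are shared with them. NK cell markers summed to 38.9 and 60.7 TPM in controls and 51.9 and 27.8 TPM in knockouts, and T cell markers to 5.78 and 8.74 TPM against 5.45 and 4.83 TPM, with 0 of 5 called in each. Neutrophil markers stood at 4.80 and 9.56 TPM in controls and 3.79 and 12.6 TPM in knockouts, with S100a9 at 27 counts or fewer in each library. Eosinophil markers summed to 2.29 and 4.73 TPM in controls and 2.30 and 2.34 TPM in knockouts, and Epx had 1 and 1 counts in controls and 0 and 0 in knockouts. The B and plasma cell sum differed most, at 786 and 759 TPM in controls and 150 and 137 TPM in knockouts, and was made almost wholly by Igkc and Jchain, genes of antibody-secreting cells. Cd79a, a B cell receptor chain, had 39 and 40 counts in controls against 65 and 18 in knockouts, which overlapped. Listed genes that one or more of these cell types also transcribe include Ptprc, Laptm5, Itgal, Tyrobp, Itgam, Itgb2, Fcer1g and Fcgr2b. The part of these cells in the values of the listed genes was not tested. Uterine cell markers were all present: summed epithelial markers ran from 1592 to 2044 TPM, stromal markers from 1414 to 2789 TPM and blood endothelial markers from 255 to 452 TPM.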

How the data were processed

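RNA of whole uterus was sequenced in 2 control and 2 knockout libraries. The authors deposited raw whole-number counts per gene and a table of TPM values. The submitters' processing notes name Trimmomatic, STAR, featureCounts and the build GRCm39. Versions, annotation and the handling of strand and multiple matches are not given in the sources used. The lowest total count among genes in the deposited TPM table was 51, and the highest among those left out was 50. Counts were tested with edgeR 4.0.16 in R 4.3.3 (TMM factors, filterByExpr with minimum count 10 and minimum total 15, quasi-likelihood F-test, group as the only term, 20950 genes, Benjamini-Hochberg over all of them, threshold 0.05). The fit had 2 residual degrees of freedom, so precision is limited, and p-values measure the spread between these libraries, which may be technical. Intervals are 95% and come from the fit. A share of 3 counts per library equals 0.0855 to 0.107 CPM, for counting error only. The procedure was tested on simulated data, in which libraries of one group differed only in depth and by random spread drawn gene by gene. That test does not cover differences in tissue content between libraries. Settings also tried were DESeq2 1.42.0, limma-voom 3.58.1, other scaling factors (RLE, upper quartile), no and a stricter filter (1 CPM in 2 libraries), limma on log2(TPM + 1), a replicate block and leaving out each library. The genes, their roles and the lists were chosen with earlier results of these data known. Named with full values are, in each role, the most abundant gene per length and the one with the smallest p, and the others with values alone; of other lists, the same pair, and further genes chosen after their values were seen. Promoter sequences are RefSeq's, in build GRCm38.p6, matched by symbol; 42 of 45 windows were found in transcript sequence in the printed direction over their last 25 bases.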

Additional observations from a re-analysis of the deposited data

How the results depend on the processing

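Of the 48 genes, 29 kept the direction of their log2 fold change under all 13 alternatives, Itgax, Itgam, Fcer1g, Gpnmb, Msr1, Cd68, Adgre1 and Csf1r among them. Depth is low for some genes: Cd163 had 15 to 78 counts per library. With 2 libraries a group, leaving out 1 leaves a lone library, which the fit assumes to vary like the others. Counts of all genes past the threshold, 1 higher and 0 lower in the main test, were 44 and 46 by DESeq2, 35 and 19 without filtering on counts, 3 and 0 on log2(TPM + 1), 0 and 0 with limma-voom, and 10 to 39 and 4 to 22 with 1 library left out. The count of listed genes lower was 4 with DESeq2 and 1 (Itgax) without filtering, and 0 to 1 with 1 library left out. The cause of these differences was not tested.

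Same-numbered libraries deviated from their group means in opposite directions (correlation −0.51 over 13319 genes). With 2 libraries a group, the crossed pairing must give the same value with the opposite sign, 0.51. Whether the replicate numbers pair the samples cannot be decided from this. The replicate block gave 22 genes higher and 10 lower, and 0 of the listed genes. It left 4 listed genes lower at an unadjusted p under 0.05, against 9 in the main test. Of all 20950 genes, 428 were under that threshold in either direction, against 630 in the main test. A crossed replicate block, added after seeing the data, gave 22 higher and 15 lower, with 1 listed gene lower. At an unadjusted p under 0.05 it had 18 listed genes lower, and 1621 of all 20950 genes in either direction. The count thus rose over all genes as well as in the list. The median of lectin and scavenger receptors was −0.23 with the replicate block, with the crossed one and with limma-voom, against −0.49.

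With 1 library left out, medians ran from −0.57 to −0.25 for all listed genes, −0.64 to 0.066 for dendritic, −1.06 to −0.56 for Fc receptor, −0.37 to −0.090 for growth and lineage factor, −0.80 to −0.30 for lectin and scavenger, −0.62 to 0.29 for monocyte, −0.74 to 0.073 for oxidase, −0.71 to −0.27 for pan-macrophage and −0.94 to 0.92 for resident genes. In the same runs 19 genes changed direction: Itgal (−0.53 to 0.16), Ms4a7 (−0.31 to 0.025), Cd14 (−0.79 to 0.094), Csf1 (−0.46 to 0.22), Irf8 (−0.20 to 0.11), Mrc1 (−1.74 to 0.38), Lyve1 (−0.94 to 1.45), Cd163 (−0.71 to 1.89), Folr2 (−1.05 to 0.92), Clec7a (−1.16 to 0.83), Cd300a (−0.48 to 0.12), Cd86 (−0.61 to 0.43), Zbtb46 (−0.31 to 0.066), Xcr1 (−1.02 to 0.10), Clec10a (−0.30 to 0.66), Cybb (−1.03 to 0.041), Ncf1 (−0.74 to 0.073), Ncf4 (−0.43 to 0.083) and Plac8 (−0.61 to 0.86). Folr2 was also at −0.00025 on log2(TPM + 1), and Cd86 at 0.0020 with RLE factors and 0.0041 with DESeq2.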
